A study of Mus musculus with 31 samples.

Results

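The genes described here are 8 parts of the Wnt ligand and receptor system: the ligands Wnt5a, Wnt7a and Wnt7b, the ligand carrier Wls, and the Frizzled receptors Fzd1, Fzd2, Fzd5 and Fzd8. They are 8 of the 18194 mouse genes that the array measured with a probe set carrying 1 gene symbol, and each was read from whichever of its probe sets had the highest mean across the 31 arrays. All 8 were chosen by name and not by a cut on their measured level, but with earlier results of these data known. The cells were neurosphere cultures grown with EGF and FGF2, plus uncultured tumour tissue, all from C57BL/6 mice. Every tumour was a medulloblastoma, a cerebellar tumour, from a Ptch het mouse, in which 1 copy of the Hedgehog receptor gene Ptch is mutant. Cancer stem cell cultures came from 2 Ptch het p53 het tumours, called 27 and B, with 3 technical replicate arrays each, averaged per tumour. A further 8 cultures came from 8 Ptch het p53 wt tumours, and the matched tissue of those 8 tumours was measured too. Normal neural stem cells (NSC) were cultured at postnatal day 7 from the IV ventricle region, the cerebellar white matter and the subventricular zone (SVZ) of the forebrain, with 3 biological replicates each, in samples whose names carry the mark WT. The IV ventricle and cerebellar cultures together are called hindbrain NSC. The p53 het group is thus 2 tumours, and each p53 wt line stands for 1 tumour.

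Wnt proteins are secreted lipid-bearing signals. Wls (Wntless) carries them to the cell surface, and Frizzled receptors with their co-receptors receive them there. Binding can stabilise beta-catenin, which switches on targets together with TCF and LEF factors, or can act on cell polarity and movement without beta-catenin. Wnt5a is best known for the second kind of signal, and Wnt7a and Wnt7b are close relatives known in the brain for vessel growth and synapse formation. In mouse, Wnt and Hedgehog signals both act in the developing cerebellum.

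The upstream promoter windows of Wls and Fzd1 are shown because these are the members whose windows held the core letters that TCF and LEF factors recognise, CTTTG or its complement CAAAG, set in capitals. Each run is the 250 bases before the gene's start, read 5′ to 3′ on the gene's own strand, from RefSeq on GRCm38.p6. The Wls window is chr3:159839400-159839649 on the plus strand and the Fzd1 window is chr5:4758217-4758466 on the minus strand.
Wls: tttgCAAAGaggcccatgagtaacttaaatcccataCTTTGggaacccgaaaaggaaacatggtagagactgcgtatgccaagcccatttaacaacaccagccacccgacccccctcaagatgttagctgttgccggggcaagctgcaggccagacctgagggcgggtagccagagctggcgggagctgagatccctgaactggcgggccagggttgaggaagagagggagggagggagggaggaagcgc
Fzd1: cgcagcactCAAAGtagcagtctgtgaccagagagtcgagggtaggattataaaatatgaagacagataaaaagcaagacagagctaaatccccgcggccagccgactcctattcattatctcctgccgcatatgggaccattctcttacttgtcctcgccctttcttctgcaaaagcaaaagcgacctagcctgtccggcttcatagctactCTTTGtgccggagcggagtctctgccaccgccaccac
Each of these windows held 2 matches, counting both strands. A match was common, since 48.6% of 32851 windows of the same length held at least 1. The windows of Wnt7a and Fzd5 held none, and those were the only other members matched in the promoter table (4 of 8 in all). None of the 4 windows held ACCACCC or its complement GGGTGGT, letters recognised by the Gli factors of Hedgehog signalling, which 3.9% of windows held. Neither motif contains the other, and a match is a description of letters only.

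All values are log2 intensities on the RMA scale, on which 1 unit is a 2-fold difference. They ran from 0.417 to 12.924 over the arrays, with array medians of 3.166 to 3.324, and 3 control probe sets for a bacterial gene read 0.76 to 1.41. The number of arrays limits the precision, and levels of different genes are not compared, because each gene has its own probes. The groups were checked against marker genes. IV ventricle replicate 2 stood apart from its group. Otx2 read 6.44 there against 1.72 and 2.13 in replicates 1 and 3. That lay above the 4.46 to 5.07 of cerebellar and the 4.23 to 4.92 of SVZ NSC. En2 read 7.67 against 4.5 and 5.72, near the 7.52 to 7.57 of cerebellar NSC. Hoxb2 read 2.22 against 4.35 and 5.13, with 2.22 to 2.78 in cerebellar NSC. For the 8 members, the calls that rest on IV ventricle NSC are therefore also given without that replicate. Calls of other genes are given with it only. Intensities summed over 7 neural stem markers were 4626 to 5885 in the p53 het tumours, 10193 to 13966 in the p53 wt lines and 9879 to 12491 in hindbrain NSC. Sums over 3 neural crest and Schwann cell markers were 409 to 863 in p53 het tumours, 19.6 to 30.2 in p53 wt lines and 19.5 to 35.7 in hindbrain NSC. The higher sum came mainly from Erbb3, at 9.17 in p53 het cultures against 2.25 in p53 wt lines. Foxd3 averaged 2.31 against 1.65, and Ngfr went the other way at 3.52 against 3.96. Ptch1 averaged 6.67 in p53 het cultures, 6.63 in p53 wt lines and 8.17 to 8.32 in the NSC groups, and it does not check the genotype, since where its probes lie relative to the mutation is not known here. The p53 gene Trp53 was not analysed here.

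Among the tumour cultures the calls fell on ligands and receptors, while Wls was called in none of the 3 comparisons of those cultures. In p53 het cultures against hindbrain NSC, 1 member was higher (Fzd2) and 3 were lower (Wnt5a, Wnt7b, Fzd5), at an adjusted p under 0.05 in limma with Benjamini-Hochberg adjustment over all 18194 genes. In that comparison 26.8% of all genes were called, 13.8% higher and 13% lower. In p53 wt lines against hindbrain NSC, 1 member was higher (Fzd1) and 3 were lower (Wnt5a, Wnt7b, Fzd8), where 9.56% of all genes were called, 3.51% higher and 6.06% lower. In p53 het cultures against p53 wt lines, 1 was higher (Fzd2) and 3 were lower (Wnt5a, Fzd1, Fzd5), where 26.3% of all genes were called, 14.5% higher and 11.8% lower. Those comparisons share samples, so their counts are not independent. The p53 wt lines were higher than their own tissue for 6 members and lower for 1, where 49.6% of all genes were called, 26.6% higher and 23.1% lower. The median log2 difference over the 8 members was -0.33, -0.42, -0.55 and 1.01 in these comparisons in the order given, beside 0.03, 0, 0.03 and 0.06 over all genes. The groups did not overlap for 4 members in p53 het cultures against hindbrain NSC (35.8% of all genes), for 1 in p53 wt lines against hindbrain NSC (3.45%), for 4 in p53 het cultures against p53 wt lines (24.9%) and for 3 in lines against tissue (22.9%).

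Among NSC, Wls was the member called, and it was higher in IV ventricle than in SVZ cultures (0.764% of all genes called, 0.352% higher and 0.412% lower) and higher in cerebellar than in SVZ cultures (1.1% called, 0.572% higher and 0.533% lower). No member was called between IV ventricle and cerebellar NSC, where limma called 0% of genes, 559 genes (3.07%) had an unadjusted p under 0.05, and 3 members did (Wnt7b, Fzd2 and Fzd8). Without IV ventricle replicate 2 that comparison called 7 genes, none of them a member. The groups did not overlap for 2 members in IV ventricle against SVZ NSC (15.2% of all genes), for 3 in cerebellar against SVZ NSC (21%) and for 2 in IV ventricle against cerebellar NSC (7.11%).

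**Figure D1:**
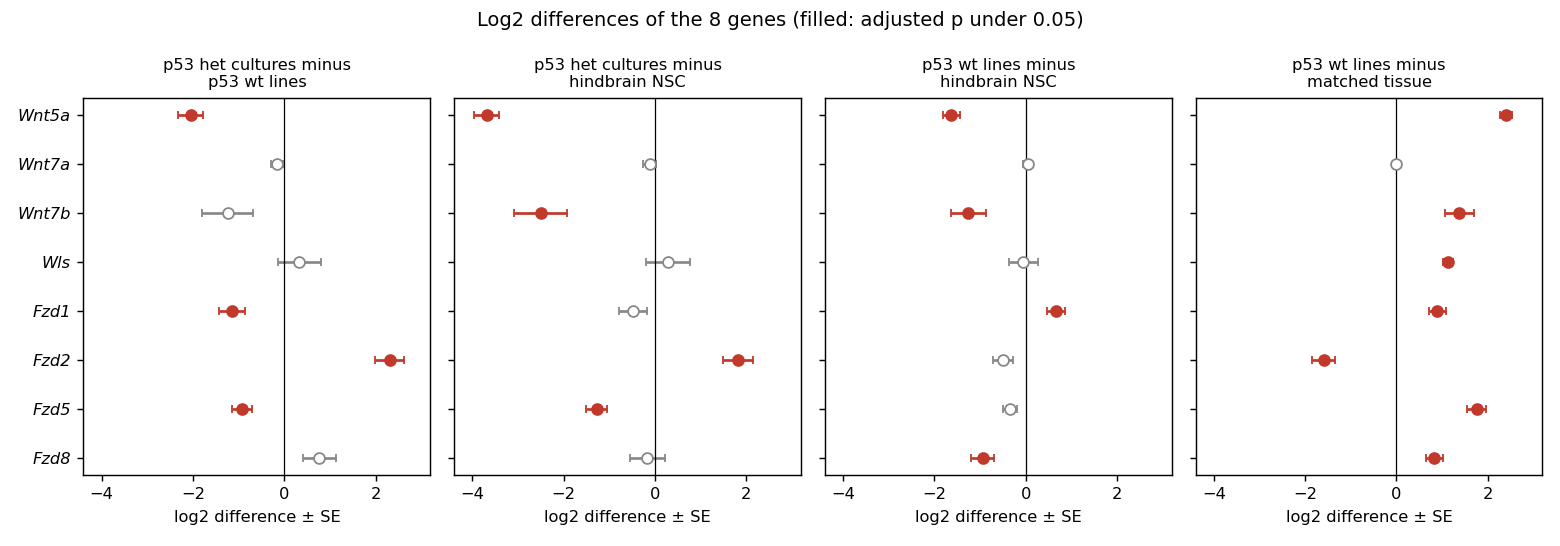
Log2 difference ± SE of each of the 8 genes in the 4 comparisons that involve tumours; filled points have an adjusted p under 0.05. Fzd2 lies right of 0 in the p53 het panels and left of 0 against tissue, while Wls lies near 0 in every panel but the last.

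Wnt5a was lower in p53 wt lines than in hindbrain NSC, and lower again in p53 het cultures. In p53 het cultures it read 2.74 in tumour 27 and 2.42 in tumour B, and in the 8 p53 wt lines 4.28 at the lowest, 4.55 at the median and 5.19 at the highest. In hindbrain NSC it ran from 5.60 to 6.60 with a median of 6.48. The 3 groups did not overlap. Wnt5a was 3.69 ± 0.28 log2 units lower in p53 het cultures than in hindbrain NSC (limma adjusted p = 3.66e-08). It was lower in p53 wt lines than in hindbrain NSC by a log2 difference of -1.63 ± 0.19 (adjusted p = 9.03e-05), and lower in p53 het cultures than in p53 wt lines by -2.05 ± 0.27 (adjusted p = 2.35e-05). Without IV ventricle replicate 2 the values against hindbrain NSC were -3.79 for p53 het cultures and -1.74 for p53 wt lines. The neural stem marker sums were lower in p53 het tumours, as Wnt5a was. In p53 wt lines those sums overlapped the hindbrain range, and Wnt5a lay below its own hindbrain range in all 8 lines. The part of these markers in either result was not tested.

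Wnt5a did not separate the NSC regions. It averaged 6.27 ± 0.38 in IV ventricle, 6.26 ± 0.58 in cerebellar and 6.42 ± 0.40 in SVZ NSC (SD, n = 3 each), and the ranges overlapped. In tissue of the p53 wt tumours it ran from 1.88 to 2.63 with a median of 2.23, so that p53 het tumour B lay inside the tissue range, tumour 27 just above it, and all other cultures further above. A second and a further probe set of Wnt5a gave -3.93 and -2.85 for p53 het cultures against hindbrain NSC and -1.88 and -2.10 for p53 wt lines. Between p53 het cultures and p53 wt lines, these sets gave -2.05 and -0.74, the last with an adjusted p of 0.0668 in limma over all probe sets. The remaining set averaged 1.87 to 2.55 in p53 het cultures, p53 wt lines, tissue and hindbrain NSC, and its single call was in p53 het cultures against hindbrain NSC (-0.69).

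Wnt7b was lower in p53 het cultures and spread widely among p53 wt lines. It read 5.09 in tumour 27 and 4.73 in tumour B, and from 4.78 (line 92) through a median of 6.06 to 7.63 (line 49) in the p53 wt lines. Hindbrain NSC ran from 6.83 to 7.87 with a median of 7.35. Lines 49 and 68, at 7.63 and 7.37, lay inside the hindbrain range, and the other 6 lines lay below it. Wnt7b was 2.50 ± 0.58 log2 units lower in p53 het cultures than in hindbrain NSC, a 5.66-fold difference (limma adjusted p = 0.00324), and without IV ventricle replicate 2 the log2 difference was -2.58 (adjusted p = 0.00439). The p53 wt lines differed from hindbrain NSC by -1.26 ± 0.38 (adjusted p = 0.0452), a call lost in 11 of 14 fits that left out 1 sample (adjusted p 0.0111 to 0.101), among them the fit without IV ventricle replicate 2 (-1.34, adjusted p = 0.069). It was also lost with the date mark as a random block (-1.24, adjusted p = 0.111). On the second Wnt7b probe set, p53 het cultures differed from hindbrain NSC by -2.24 (limma adjusted p = 0.00339 over all probe sets). The p53 wt lines differed by -1.09 on that set and were not called (adjusted p = 0.0562).

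The p53 wt lines fall under 2 date marks in their sample names, 1 for lines 74, 91, 92 and 9 and 1 for lines 49, 68, 77 and 83. Wnt7b averaged 5.42 ± 0.72 in the first 4 lines and 6.87 ± 0.85 in the second 4 (SD, n = 4 each), and the part of the mark in this spread was not tested. Against hindbrain NSC the first 4 lines gave -1.98 (adjusted p = 0.000453) and the second 4 gave -0.54 (adjusted p = 0.322). Each mark holds tumour samples or NSC but not both, so mark and group cannot be told apart in any comparison of tumour cultures with NSC or of p53 het with p53 wt. The difference between p53 het cultures and p53 wt lines was -1.24 ± 0.56 and was not called (adjusted p = 0.121). It was called against lines 49, 68, 77 and 83 alone (-1.96, adjusted p = 0.00274) and not against lines 74, 91, 92 and 9 alone (-0.52, adjusted p = 0.301). Without line 92 it was called as well (-1.44, adjusted p = 0.0459). In IV ventricle against cerebellar NSC, Wnt7b read 7.36 to 7.87 against 6.83 to 7.35, and the difference of 0.56 ± 0.17 was not called (adjusted p = 1). The second Wnt7b probe set gave 1 ± 0.24 there and was not called either.

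Wnt7a gave different answers from different probe sets. Its probe set with the highest mean changed little: 4.57 and 4.40 in the p53 het tumours, 4.40 to 5.07 (median 4.63) in p53 wt lines, 4.26 to 5.04 (median 4.61) in tissue, 4.46 to 4.84 in hindbrain NSC and 4.30 to 4.59 in SVZ NSC. All 6 groups overlapped their neighbours in level, and no comparison was called. A second probe set read 2.92 and 2.62 in the p53 het tumours, 3.01 to 5.82 (median 3.75) in p53 wt lines, 5.18 to 5.88 (median 5.35) in hindbrain NSC, and 6.20, 6.50 and 6.70 in SVZ NSC. It therefore had SVZ NSC on top and p53 het cultures at the bottom.

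In a limma fit over every probe set, the second Wnt7a set was lower in IV ventricle cultures than in those of the SVZ by -1.17 ± 0.17 (adjusted p = 0.0227), and in cerebellar than in SVZ NSC by -0.89 ± 0.17 without passing the threshold (adjusted p = 0.0617). It was lower in p53 het cultures than in hindbrain NSC by -2.67 ± 0.56 (adjusted p = 0.00182) and in p53 wt lines than in hindbrain NSC by -1.37 ± 0.37 (adjusted p = 0.0301). Without IV ventricle replicate 2 these 3 calls read -1.19 for IV ventricle against SVZ NSC (adjusted p = 0.05, at the threshold), -2.66 for p53 het cultures (adjusted p = 0.00354) and -1.36 for p53 wt lines (adjusted p = 0.0684, not called). The remaining Wnt7a probe set averaged 1.38 to 1.48 in p53 het cultures, p53 wt lines, tissue, hindbrain NSC and SVZ NSC, at or near the control probe sets' range. Where the probes of these sets lie in the gene was not analysed here, so which set follows the Wnt7a transcript was not tested.

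**Figure D2:**
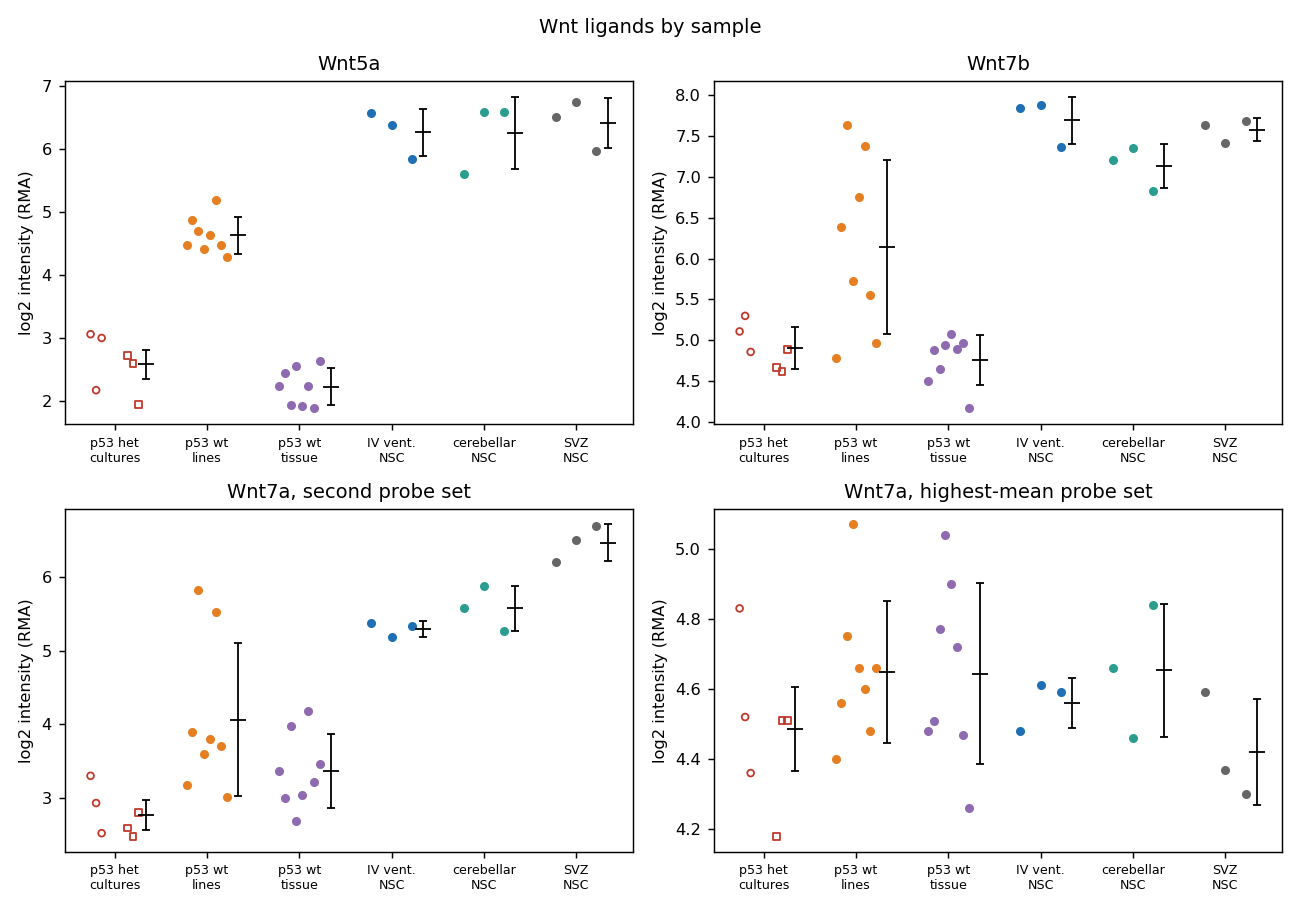
Log2 intensity of Wnt5a, Wnt7b and 2 probe sets of Wnt7a in every sample; for p53 het cultures circles are the 3 arrays of tumour 27 and squares those of tumour B, and bars are means ± SD over samples (tumour means for p53 het). Wnt5a, Wnt7b and the second Wnt7a set are low in p53 het cultures and tissue and high in NSC, while the highest-mean Wnt7a set spans less than 1 log2 unit in all groups.

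The second Wnt7a probe set and Wnt7b picked out the same p53 wt lines. Line 49 read 5.82 and line 68 read 5.53 on that Wnt7a set, while the other 6 lines read 3.01 to 3.89. Those 2 lines were also the highest for Wnt7b, and both reached the hindbrain NSC range of the Wnt7a set (5.18 to 5.88). Line 77 came next for Wnt7b at 6.75 but read 3.80 on the Wnt7a set.

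**Figure D3:**
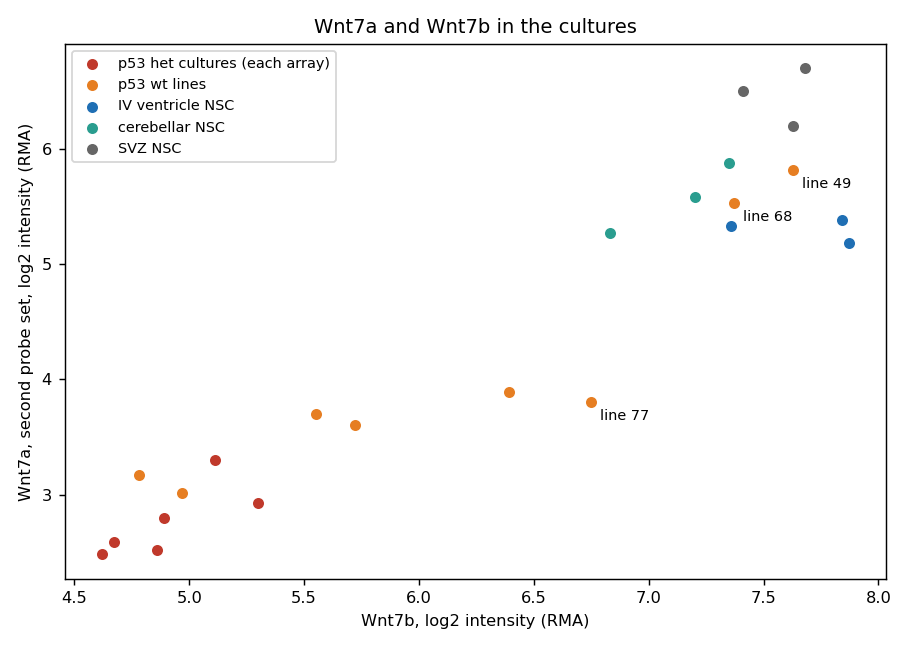
Log2 intensity of Wnt7b (horizontal) and of the second Wnt7a probe set (vertical) in each culture array. Lines 49 and 68 lie among the NSC, and the p53 het arrays lie at the low end of both axes with lines 91 and 92.

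Wls was higher in both hindbrain stem cell regions than in the SVZ. It read 6.98, 7.47 and 7.13 in IV ventricle NSC and 7.24, 6.72 and 7.81 in cerebellar NSC, against 2.47, 3.15 and 5.15 in SVZ NSC. Every hindbrain culture lay above every SVZ culture, and SVZ replicate 3 lay nearest to them. The difference was 3.60 ± 0.57 for IV ventricle against SVZ (12.1-fold, limma adjusted p = 0.0214) and 3.67 ± 0.57 for cerebellar against SVZ (12.7-fold, adjusted p = 0.0187). Without IV ventricle replicate 2 the first was 3.46 (adjusted p = 0.0479). The call was lost in 4 of 6 fits that left out 1 sample for each region: without replicate 1 or 3 of IV ventricle or of cerebellar NSC, and without SVZ replicate 1 or 2. In the fits that lost the call, the differences were 3.04 to 3.71 for IV ventricle and 3.11 to 3.68 for cerebellar NSC. Without SVZ replicate 3, where the call was kept, they were 4.38 and 4.45. All 3 regions share 2 date marks. Within the mark of IV ventricle replicate 1, cerebellar replicates 1 and 2 and SVZ replicates 1 and 2, Wls was 4.17 higher in IV ventricle and 4.17 higher in cerebellar than in SVZ NSC. Within the mark of replicate 3 of each region, it was 1.98 higher in IV ventricle and 2.66 higher in cerebellar than in SVZ NSC. Those differences have no test here, since the arms hold 1 or 2 cultures. With the date mark as a block the difference was 3.27 for IV ventricle (adjusted p = 0.0175) and 3.67 for cerebellar against SVZ NSC (adjusted p = 0.00345).

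Other Wls probe sets gave like values. A second and a further set gave 3.08 and 3.49 for IV ventricle against SVZ and 3.09 and 3.50 for cerebellar against SVZ, each with an adjusted p under 0.05, while the remaining set read at the level of the control probe sets. No difference of Wls was called between tumour cultures and hindbrain NSC. Wls read 7.85 in tumour 27 and 7.15 in tumour B, 6.46 to 7.55 (median 7.25) in p53 wt lines, and 6.72 to 7.81 (median 7.18) in hindbrain NSC. The differences from hindbrain NSC were 0.28 ± 0.48 for p53 het cultures (adjusted p = 0.755) and -0.05 ± 0.32 for p53 wt lines (adjusted p = 0.952), and neither was called.

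Among the receptors, Fzd2 was higher in p53 het cultures and Fzd1 was lower there than in p53 wt lines. Fzd2 read 8.52 in tumour 27 and 7.82 in tumour B, 5.13 to 6.70 (median 5.85) in p53 wt lines, and 6.08 to 6.70 (median 6.39) in hindbrain NSC. Both p53 het tumours lay above every p53 wt line and every NSC. Fzd2 was 1.82 ± 0.33 higher in p53 het cultures than in hindbrain NSC (3.53-fold, limma adjusted p = 0.000438, and 1.80 without IV ventricle replicate 2) and 2.31 ± 0.32 higher than in p53 wt lines (4.96-fold, adjusted p = 3.3e-05). The p53 wt lines differed from hindbrain NSC by -0.49 ± 0.22, which was not called (adjusted p = 0.18). The other probe sets of Fzd2 gave 2.17 and 1.28 for p53 het cultures against p53 wt lines and both passed the threshold. Some markers of several cell types differed in the p53 het group too. Of 3 neural crest and Schwann cell markers, 2 were higher than in p53 wt lines: Erbb3, and Foxd3 at low levels (2.31 against 1.65). The remaining 1, Ngfr, averaged lower and was not called. Of 5 oligodendrocyte precursor markers, 2 were higher (Sox10, at 10.06 in p53 het cultures against 4.23 in p53 wt lines, and Pdgfra, at 10.19 against 6.41), 2 were lower (Olig1 and Olig2) and 1 was not called. Against hindbrain NSC 3 of those 5 were higher and 2 lower, and the summed intensity of the 5 was 4261 to 5947 in p53 het tumours, 4210 to 6439 in p53 wt lines and 5577 to 6134 in hindbrain NSC. Of 7 neural stem markers 6 were lower than in p53 wt lines. Of 7 mural cell and fibroblast markers 2 were higher and 5 were not called, with a median log2 difference of 0.09. Over all genes 14.5% were higher and 11.8% lower in p53 het cultures than in p53 wt lines. The part of these cell types in the results of the p53 het cultures was not tested.

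Fzd1 read 7.00 in tumour 27 and 7.69 in tumour B, 7.81 to 9.31 (median 8.45) in p53 wt lines, and 7.40 to 8.24 (median 7.84) in hindbrain NSC. Both p53 het tumours lay below all 8 lines, while the lines and hindbrain NSC overlapped. The difference between p53 het cultures and p53 wt lines was -1.15 ± 0.29 (limma adjusted p = 0.00629). Without tumour 27 it was -0.80 (adjusted p = 0.168). The second Fzd1 probe set gave -0.78 ± 0.36 (adjusted p = 0.143). The p53 wt lines were 0.67 ± 0.20 above hindbrain NSC (adjusted p = 0.0395), a call lost in 10 of 14 fits without 1 sample (adjusted p 0.017 to 0.106), with a difference of 0.62 without IV ventricle replicate 2 (adjusted p = 0.103). A random block for date mark ended the call too (0.69, adjusted p = 0.122), as did the mean of all probe sets. On the second Fzd1 probe set, p53 wt lines against hindbrain NSC gave 0.6 ± 0.25 and were not called (limma adjusted p = 0.155 over all probe sets).

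Fzd5 was lower in p53 het cultures. It read 3.17 in tumour 27 and 2.98 in tumour B, 3.50 to 4.66 (median 3.94) in p53 wt lines, and 3.83 to 4.74 (median 4.36) in hindbrain NSC. Both p53 het tumours lay below every other culture. The difference was -1.28 ± 0.23 from hindbrain NSC (limma adjusted p = 0.000465, and -1.25 without IV ventricle replicate 2) and -0.93 ± 0.22 from p53 wt lines (adjusted p = 0.00452), and the second was -0.84 without tumour B (adjusted p = 0.0671). In NSC, Fzd5 read 4.39, 4.32 and 3.83 in cerebellar cultures against 5.01, 5.01 and 5.12 in SVZ cultures. That difference of -0.86 ± 0.17 missed the threshold (adjusted p = 0.0562) and passed it once replicate numbers entered the fit as a block (adjusted p = 0.0378), which raised the members called in cerebellar against SVZ NSC to 2. The second Fzd5 probe set averaged 1.64 to 2.00 in p53 het cultures, p53 wt lines, tissue, hindbrain NSC and SVZ NSC, and it was called in no comparison.

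Fzd8 was lower in p53 wt lines. It read 3.96 in tumour 27 and 4.26 in tumour B, 2.53 to 4.28 (median 3.37) in p53 wt lines, and 3.82 to 4.59 (median 4.38) in hindbrain NSC. Lines 68 and 9, at 4.28 and 4.04, lay inside the hindbrain range, and the other 6 below it. The p53 wt lines differed from hindbrain NSC by -0.94 ± 0.25 (limma adjusted p = 0.024), and without IV ventricle replicate 2 by -0.94 with an adjusted p of 0.0553. With the date mark as a random block the call was lost (-0.93, adjusted p = 0.0831). Lines 74, 91, 92 and 9 averaged 2.99 and lines 49, 68, 77 and 83 averaged 3.69, with differences from hindbrain NSC of -1.29 (adjusted p = 0.00546) and -0.59 (adjusted p = 0.0925). The p53 het cultures differed from hindbrain NSC by -0.17 ± 0.38, which was not called (adjusted p = 0.81). A second Fzd8 probe set averaged 1.10 to 1.87 in the same groups and in SVZ NSC and tissue, near the control probe sets, and was called in no comparison.

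Ordered by group mean, the levels ran as follows, each gene against itself. Wls had p53 het cultures on top (7.50) and cerebellar (7.26), IV ventricle (7.19) and p53 wt (7.17) cultures next, then tissue (6.04), with every neighbour overlapping. SVZ NSC came last at 3.59, below all tissue samples.

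Fzd1 was highest in p53 wt lines (8.50), followed by SVZ (8.02), IV ventricle (7.97) and cerebellar NSC (7.68), tissue (7.60) and p53 het cultures (7.35), and all neighbours in that order overlapped. Fzd2 had an upper pair, p53 het cultures (8.17) and tissue (7.45), which lay apart from SVZ (6.53), IV ventricle (6.52) and cerebellar NSC (6.17) and p53 wt lines (5.86). Fzd5 had SVZ NSC on top (5.05) and apart from IV ventricle NSC (4.52), which overlapped cerebellar NSC (4.18) and through them p53 wt lines (4.01), while p53 het cultures (3.08) and tissue (2.25) each lay apart below. Fzd8 ran from SVZ (4.53) and IV ventricle NSC (4.47) over p53 het (4.11) and cerebellar cultures (4.10) to p53 wt lines (3.34) and tissue (2.52), and among neighbours IV ventricle NSC lay apart from p53 het cultures.

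Wnt5a and Wnt7b had the NSC groups on top and tissue at the bottom, with p53 het cultures next to tissue. Wnt7b ran from IV ventricle (7.69) and SVZ NSC (7.57) over cerebellar NSC (7.13) and p53 wt lines (6.15) to p53 het cultures (4.91) and tissue (4.76), and the neighbours lying apart were SVZ and cerebellar NSC. That last pair differed by -0.45 ± 0.17 for cerebellar against SVZ NSC, which was not called (adjusted p = 0.304).

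**Figure D4:**
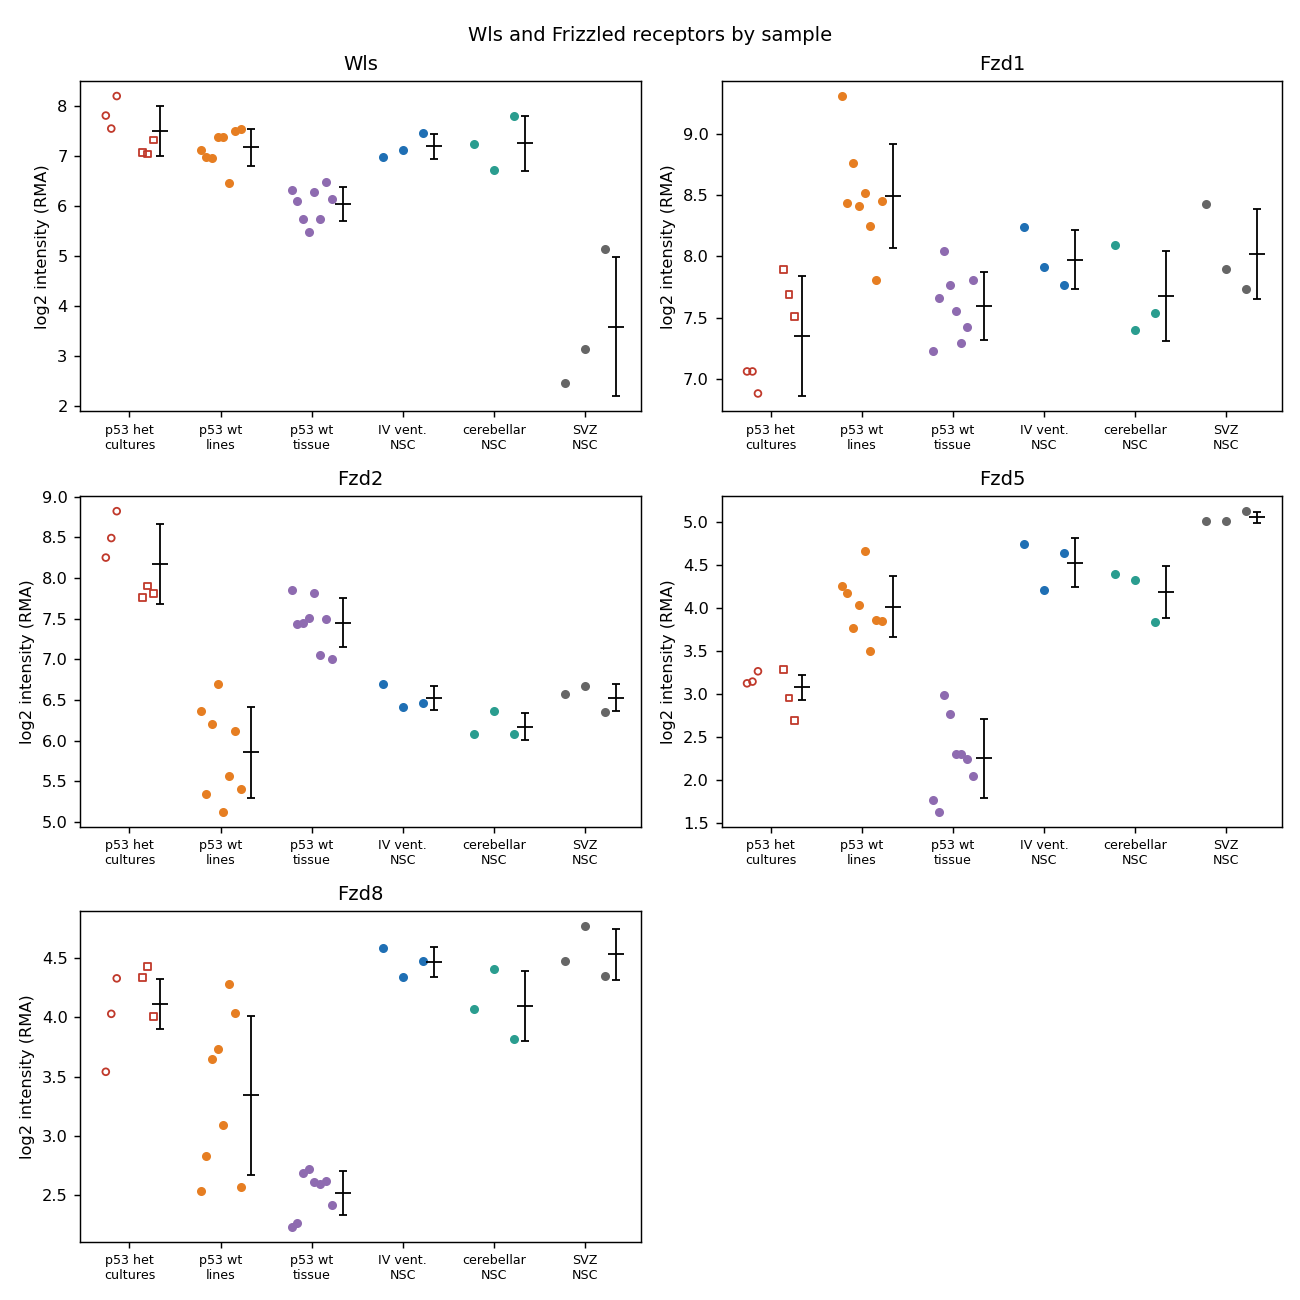
Log2 intensity of Wls, Fzd1, Fzd2, Fzd5 and Fzd8 in every sample; symbols and bars are as in the ligand plot. Wls is lowest in SVZ NSC, at 2.47 to 5.15, and Fzd2 is highest in p53 het cultures and tissue.

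The comparison of each p53 wt line with its own tumour tissue asks how levels in culture relate to those in the tumour. Tissue is a mixture. Markers of the granule neuron lineage (6 of 6), endothelium (5 of 5), mural cells and fibroblasts (7 of 7) and microglia (5 of 5) were lower in the lines, while 5 of 7 neural stem markers were higher and 2 lower. Neuron (4 of 5), astrocyte (3 of 5), oligodendrocyte (2 of 4), neural crest and Schwann (2 of 3) and choroid plexus markers (1 of 4) were lower in part. Of 5 oligodendrocyte precursor markers 3 were higher and 2 lower, and no red blood cell or ependymal marker was called. Over all genes 26.6% were higher and 23.1% lower. Summed intensities in lines against tissue were 376 to 855 against 3899 to 5097 for the granule lineage, 21.3 to 26.9 against 67.7 to 98.4 for endothelium, 35.6 to 55.6 against 244 to 570 for mural cells and fibroblasts, and 18.8 to 24.9 against 266 to 648 for microglia. The choroid plexus sum was 25 to 31.4 in lines and spread from 30.8 to 4205 among tissue samples. At the control level in the lines were Gabra6 of the granule list, Itgam of the microglia list and Mog of the oligodendrocyte list. The part of these cells in the results below was not tested, and in bulk tissue fewer cells of a type and less RNA per cell cannot be told apart.

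Wnt5a was higher in the line of all 8 tumours, by 1.85 to 3.25, with lines at 4.28 to 5.19 against tissue at 1.88 to 2.63. Its mean difference was 2.40 ± 0.14 (5.28-fold, limma with the tumour as a block, adjusted p = 3.69e-07). Fzd5 was higher in all 8 lines, by 0.52 to 2.53, with lines at 3.50 to 4.66 against tissue at 1.63 to 2.98 and a mean difference of 1.76 ± 0.21 (adjusted p = 5.53e-05). Neither gene's line and tissue ranges overlapped.

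Wls was also higher in all 8 lines, by 0.64 to 1.63, with lines at 6.46 to 7.55 against tissue at 5.49 to 6.49 (1.13 ± 0.12, adjusted p = 2.23e-05). Line 68 was lowest among the lines and just below the highest tissue. Wnt7b was higher in 7 of 8 lines, line 92 being the exception, with lines at 4.78 to 7.63 against tissue at 4.17 to 5.08 (1.38 ± 0.31, adjusted p = 0.00348). On the second Wnt7b probe set all 8 lines were higher, by 0.5 to 2.54.

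Fzd1 lines read 7.81 to 9.31 against 7.23 to 8.04 in tissue (0.90 ± 0.18, adjusted p = 0.00206), and in tumour 9 line and tissue were level to 2 decimals. Fzd8 lines read 2.53 to 4.28 against 2.23 to 2.72 in tissue, higher in 7 of 8 lines (0.83 ± 0.19, adjusted p = 0.00416). Within the 4 tumours whose line and tissue share a date mark, Wnt7b gave 0.79 (adjusted p = 0.0791) and Fzd8 gave 0.61 (adjusted p = 0.127), and neither was called. The other 5 calls held there.

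Fzd2 ran the other way. It was lower in all 8 lines, by 0.35 to 2.69, with lines at 5.13 to 6.70 against tissue at 7.01 to 7.85, and the ranges did not overlap. The mean difference was -1.59 ± 0.25 (adjusted p = 0.000341). Of the p53 het cultures, tumour 27 lay above this tissue range at 8.52, and tumour B lay at its upper end at 7.82. Wnt7a on its highest-mean probe set was higher in 4 of 8 lines (0.00 ± 0.08, adjusted p = 0.972), and on the second in 5 of 8 (0.70 ± 0.36, adjusted p = 0.137 over all probe sets).

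**Figure D5:**
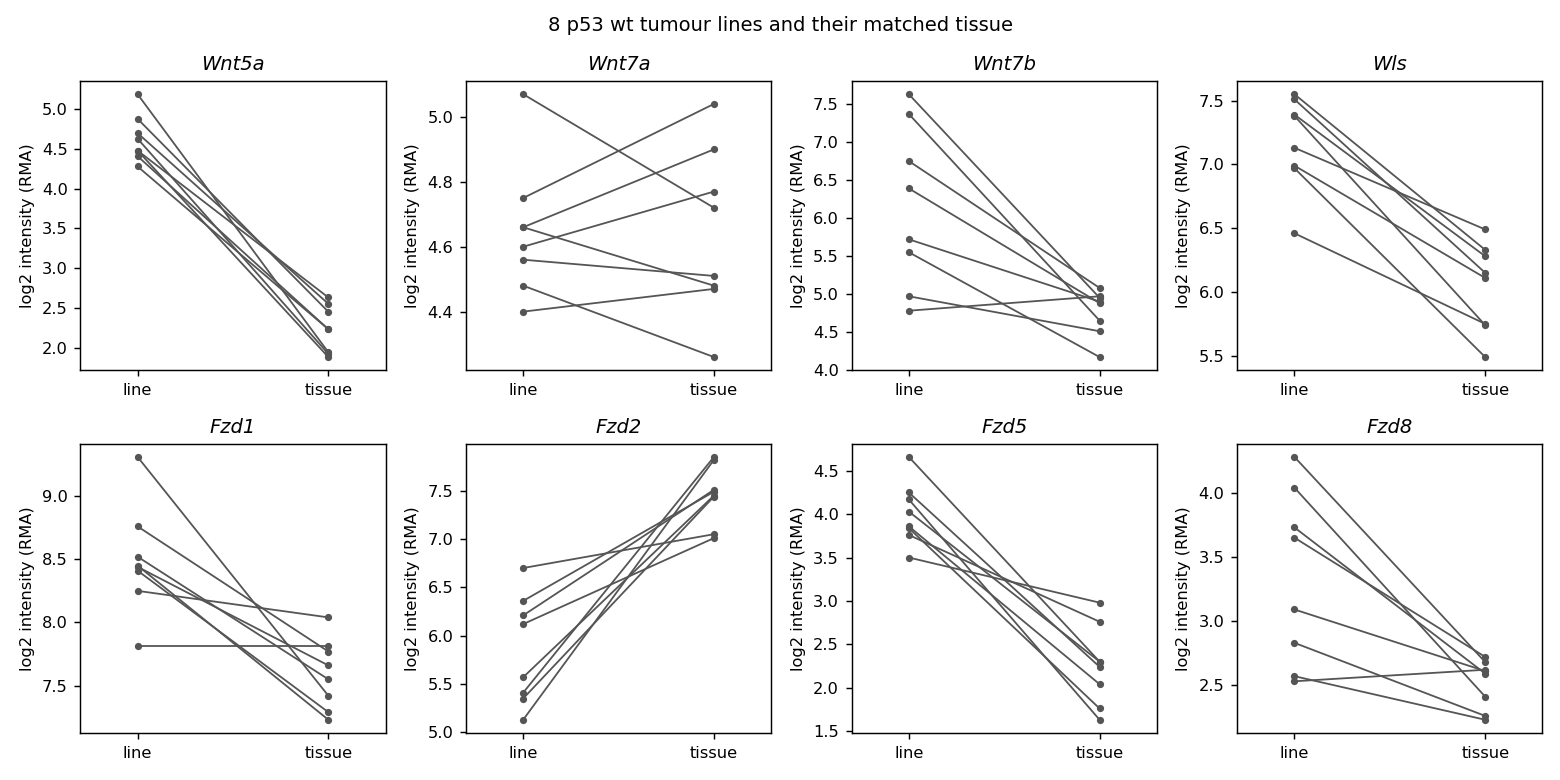
Log2 intensity of each gene in the 8 p53 wt lines and their matched tissue, with a line joining the samples of 1 tumour. Wnt5a, Wls and Fzd5 are higher in every line, Fzd2 is lower in every line, and Wnt7a (highest-mean probe set) has no common direction.

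The rest of the Wnt ligand family showed no called difference among the cultures. Of the 16 other Wnt ligands, limma called 0 in each of the 6 comparisons of cultures. At an unadjusted p under 0.05 there were 2 in cerebellar against SVZ NSC, 2 in p53 het cultures against p53 wt lines and 0 in the other 4, beside 13.7% and 34.6% of all genes in the first pair and 9.51%, 3.07%, 22.9% and 35.9% in IV ventricle against SVZ, IV ventricle against cerebellar, p53 wt against hindbrain and p53 het against hindbrain cultures. Against tissue the lines had 3 higher (Wnt8b, Wnt11 and Wnt2b, by 0.53, 0.23 and 0.21) and 1 lower, Wnt4, at 3.46 in lines against 4.38 in tissue.

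Of the 6 other Frizzled receptors, Fzd9 was higher in IV ventricle NSC (8.59) and cerebellar NSC (8.50) than in SVZ NSC (7.57), with differences of 1.02 ± 0.10 and 0.93 ± 0.10 (limma adjusted p = 0.00252 and 0.00378). In p53 het cultures against p53 wt lines 3 were higher and 1 lower: Fzd6 (2.60), Fzd7 (1.55) and Fzd4 (1.35) rose, and Fzd3 fell by 1.37. Over all genes 14.5% were higher and 11.8% lower in that comparison. In lines against tissue 2 were higher and 3 lower, where 26.6% of all genes were higher and 23.1% lower. Fzd9 averaged 8.89 in lines against 4.18 in tissue, and Fzd7, at 4.50 in lines against 8.06 in tissue, was lower like Fzd2.

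Co-receptors and surface partners (16 genes) included Porcn, the enzyme that attaches the lipid to Wnt proteins. In p53 wt lines against hindbrain NSC 2 of 16 were higher and 5 lower, where 3.51% of all genes were higher and 6.06% lower. In p53 het cultures against hindbrain NSC 4 were higher and 4 lower, where 13.8% of all genes were higher and 13% lower. Porcn averaged 4.01 in p53 het cultures, 4.16 in p53 wt lines and 4.89 in hindbrain NSC, a difference of -0.87 ± 0.20 (adjusted p = 0.00323) for p53 het cultures and -0.72 ± 0.13 (adjusted p = 0.00278) for p53 wt lines. Vangl2 and Celsr2, planar polarity proteins, were lower in both (-1.72 and -1.21 in p53 het cultures, -0.57 and -0.76 in p53 wt lines), and Gpc6, a glypican, was higher in both (1.00 and 0.96). Against tissue 6 were higher and 5 lower, where 49.6% of all genes were called. Celsr3 averaged 2.57 in lines against 7.05 in tissue.

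Of 15 signal transduction genes measured of 16 listed, 1 was higher and 5 lower in p53 het cultures than in hindbrain NSC. Over all genes 13.8% were higher and 13% lower there. Apc, a scaffold of the complex that degrades beta-catenin, averaged 6.19 in p53 het cultures, 8.29 in p53 wt lines and 8.65 in hindbrain NSC, and it was lower in p53 het cultures than in p53 wt lines by -2.10 ± 0.14 (limma adjusted p = 4.89e-09). Lef1, a beta-catenin partner, was higher in p53 het cultures, at 3.57 against 2.02 in p53 wt lines. In p53 wt lines against hindbrain NSC 1 was higher (Ctnnb1, the beta-catenin gene, 0.38) and 4 lower. Over all genes 3.51% were higher and 6.06% lower.

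Of 8 feedback genes, which Wnt signalling is known to induce, 4 were lower and none higher in p53 het cultures than in hindbrain NSC. Over all genes 13% were lower and 13.8% higher there. Axin2 averaged 4.91 in p53 het cultures against 6.66 in hindbrain NSC (-1.75 ± 0.25, limma adjusted p = 4.61e-05), and Nkd1 averaged 3.04 against 5.67 (-2.63 ± 0.26, adjusted p = 9.29e-07). In p53 wt lines against hindbrain NSC 3 were lower: Znrf3 (-0.75), Nkd1 (-0.62) and Rnf43 (-1.48), where 6.06% of all genes were lower. Rnf43, which removes Frizzled receptors from the cell surface, separated the NSC regions as Wls did, at 4.41 in IV ventricle and 5.20 in cerebellar NSC against 2.12 in SVZ NSC. In lines against tissue Tnfrsf19, Axin2 and Lgr5 were higher (2.08, 1.55 and 0.76) and Nkd1 was lower (-1.47). That is 4 of 8 genes called, beside 49.6% of all genes.

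The genes most like each member over the 19 cultures were found by Pearson's r among 2711 genes whose SD was at least 0.5. The cultures fall into groups, so r mostly follows group differences, and it is given as a description. Wnt5a was most like Lfng (0.949), Vav3 (0.944) and Camk2b (0.934). Wnt7b was most like Ccdc88c (0.941), the receptor gene Fzd3 (0.932) and Greb1 (0.925). Wnt7a on its second probe set was most like Dtx4 (0.936), Dusp10 (0.928) and Pcx (0.919), while on its highest-mean set the best match, Gsg1l, reached 0.665.

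Wls was most like Ets1 (0.922), Afap1l2 (0.906) and Vcan (0.902). Among receptors, Fzd2 was most like Tspan2 (0.932), Pla2g6 (0.902) and Fam117a (0.87), and Fzd8 was most like Mtx2 (0.926), Bex4 (0.895) and Bex1 (0.89). Fzd5 was most like Dalrd3 (0.884), As3mt (0.844) and Mtmr11 (0.837). Fzd1 had weaker matches, Tpi1 (0.78), Tspan9 (0.779) and Lpl (0.772).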

How the data were processed

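Total RNA of 31 mouse samples was hybridised to Affymetrix arrays. The authors deposited log2 intensities for each probe set, made with RMA per the submitters' processing notes, with its version and the build not given in the sources used here. Of 45101 probe sets, 34958 carry 1 gene symbol, 932 several and 9211 none, and 34754 of the first matched an Entrez gene with no symbol changed. Each gene was read from its probe set with the highest mean (18194 genes, 9012 with more than 1). The 3 technical replicate arrays of each p53 het tumour were averaged, leaving 27 samples.

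Tests used lmFit and eBayes of limma 3.58.1 under R 4.3.3, two-sided, with Benjamini-Hochberg adjustment over all genes and a threshold of 0.05. The fits used 9 NSC arrays, 19 cultures, or 8 lines and 8 tissues with the tumour as a block. For hindbrain NSC, the IV ventricle and cerebellar group means were averaged. The fits were tested on simulated data, and no outcome of that is reported here. Same-numbered NSC replicates deviated together between SVZ and both other regions (r 0.175 to 0.341 for the 6 pairs), so the replicate block is given where it changes a call. No 2 arrays were identical (highest r 0.9944). The labels call the NSC samples biological replicates without naming animals. The named genes are the 8 members, the 3 genes most like each, and of each list the called genes with the smallest p (up to 4 in the direction with more calls, up to 2 in the other). The members and lists were chosen with earlier results of these data known. Alternatives tried were the probe set rule, scaling, dim genes left out, the prior, the arrays fitted, blocks, date marks and each sample left out.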

Additional observations from a re-analysis of the deposited data

Results flagged for a closer look

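For Fzd1 and Fzd2 the p53 het cultures and the p53 wt lines differed from hindbrain NSC in opposite directions, and the difference between them passed the threshold. Fzd1 was -0.48 in p53 het cultures and 0.67 in p53 wt lines, a difference of -1.15 (limma adjusted p = 0.00629). Fzd2 was 1.82 in p53 het cultures and -0.49 in p53 wt lines, a difference of 2.31 (adjusted p = 3.3e-05). Of the 4 values against hindbrain NSC, -0.48 for Fzd1 and -0.49 for Fzd2 were not called themselves. Over the members' probe sets, the second Wnt7a set included, no p53 wt line or tissue passed Dixon's test for a sample far from its group (18 groups of 8 tested). The test weighs the gap beside the most extreme sample, so it can miss a pair of samples lying apart together. Lines 49 and 68 on the second Wnt7a set are such a pair. Groups of 3, IV ventricle NSC among them, were not tested in this way.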

How the results depend on the processing

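Of 399 member values that were called and then recomputed under an alternative, 344 stayed called in the same direction and 55 did not. Of 620 not called, 12 gained a call in the same direction. A further 3, all of them Wnt7a on its second probe set, became called in the opposite direction. The calls of Wnt5a in the 3 tumour culture comparisons, of Wnt7b and Fzd5 in p53 het cultures against hindbrain NSC, and of Fzd2 in p53 het cultures held in every alternative of this count that tested them. Fits of each probe set on its own were not part of the count. There the other Wnt7b and Fzd2 sets kept the calls. For p53 het cultures against p53 wt lines, further Wnt5a sets gave -0.74 (limma adjusted p = 0.0668) and -0.23 (adjusted p = 0.538). The last of these gave -0.45 for p53 wt lines against hindbrain NSC (adjusted p = 0.0826). The second Fzd5 set gave 0.03 for p53 het cultures against hindbrain NSC (adjusted p = 0.932). Exchanging the Wnt7a probe set, chosen after seeing the data, turned its direction in 3 comparisons, and each was then called with adjustment over genes. The differences were -1.17 in IV ventricle against SVZ NSC, -0.89 in cerebellar against SVZ NSC and -1.37 in p53 wt lines against hindbrain NSC.

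Counts of members called moved as follows. In IV ventricle against SVZ NSC (1 in the report) the count was 0 with a trended robust prior or with the compared arrays alone, and 2 with the second Wnt7a probe set. In cerebellar against SVZ NSC (1) it was 0 with the trended robust prior and 2 with median centring, quantile normalization, the compared arrays alone, the replicate block, the date mark block or the second Wnt7a probe set. With the replicate block it was 1 in IV ventricle against SVZ NSC and 0 in IV ventricle against cerebellar NSC, and 7 without the tumour block in lines against tissue. In p53 wt lines against hindbrain NSC (4) it was 2 without dim genes and 1 (Wnt5a) with the date mark as a random block, and 1 with IV ventricle or cerebellar NSC alone, or with lines 49, 68, 77 and 83 alone. Leaving out dim genes, which removes Wnt5a, Fzd5 and Fzd8 from the test, gave 2 in both p53 het comparisons (4 each) and 4 in lines against tissue (7). Leaving out 1 sample gave 0 to 1, 0 to 1, 0 to 0, 1 to 4, 4 to 4, 3 to 5 and 7 to 7 members called in IV ventricle against SVZ, cerebellar against SVZ, IV ventricle against cerebellar, p53 wt and p53 het against hindbrain NSC, p53 het against p53 wt, and lines against tissue. Of 650 recomputed counts of the other lists 78 moved by over 1.5 times. Over all genes, the date mark block called 728 genes in cerebellar against SVZ NSC (201 in the report) and the date mark as a random block 820 in p53 wt lines against hindbrain NSC (1740). The causes of these changes were not tested, apart from genes removed from the test. The main limits are 2 p53 het tumours, 3 cultures per NSC region, date marks that follow the groups, and probe sets near the control level.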
